A study of Rattus norvegicus with 15 samples.

Results

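The early dose comparison set cells labelled as rat brain microvascular endothelial cells (BMECs) given 20 Gy of x-rays against cells given 5 Gy, both collected 12 h after exposure. Its members are the 3 libraries labelled 20 Gy at 12 h and the 3 labelled 5 Gy at 12 h, 6 of the 15 RNA sequencing libraries of the series, chosen by their labels alone. The question was how far the early response is the same at both doses, and for which genes the data bound a dose difference. Levels are FPKM (fragments per kilobase of transcript, scaled to the mapped fragments of each library), summed over the transcripts that carry 1 gene name. Of 28906 gene names, 11310 had a mean of at least 0.5 FPKM over the 15 libraries and were tested.

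The cells were primary cultures from the brains of Spraque-Dawley rats (spelled as labelled), littermates 2 to 3 weeks old of both sexes, and were exposed on a linear accelerator at 2.5 Gy per minute near 60% confluence. The unexposed control group held 3 libraries collected after 12 h in culture, and it was the common reference for both doses. A further 3 libraries per dose were collected at 24 h. They are not among the libraries compared at 12 h, but they enter the filter and the estimate of the spread between libraries. The study's methods call the replicates biological, but neither they nor the labels say whether these came from separate animals or cultures, so the p-values measure the spread between these libraries, which may be technical.

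The labelled cell type was checked against 22 endothelial marker genes. Of the 20 found by name, 5 passed the filter on low values, and 6 passed when the unnamed transcripts of each locus were added. Pecam1 and Abcb1a were not found by name, so they could not be read. VE-cadherin (Cdh5) stood between 0.0228 and 0.275 FPKM in the 9 libraries of the control and 12 h groups, the tight junction gene Cldn5 at 0.0328 FPKM or less, and Tie1, Emcn, Sox17, Egfl7 and Robo4 at 0. The markers just named were thus at or near 0 in their named transcripts, which goes against the label, while 5 of the list passed the filter. The name BMEC is used here only as the label gives it. The glucose transporter Slc2a1 of the blood-brain barrier was at 11.9 to 23.9 FPKM. With Slc2a1 included, the 20 markers found summed to 22.3 to 35.7 FPKM in the control. Their sum was 15.1 to 32.2 FPKM after 5 Gy and 14.7 to 24.0 FPKM after 20 Gy. Only 1 of the 5 that passed had a mean of at least 5 FPKM. Genes typical of fibroblasts were high, and the sum over 12 of them ran from 1937 to 2115 FPKM after 5 Gy, from 1889 to 1979 FPKM after 20 Gy and from 2154 to 2432 FPKM in the control. Their part in the dose difference was not tested, and of the 9 that were tested none was separated between the doses. In bulk libraries, fewer cells of a type and less RNA per cell cannot be told apart.

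Ionizing radiation breaks DNA, and the damage kinases stabilize the transcription factor p53. p53 turns on the cell cycle inhibitor Cdkn1a (p21), its own antagonist Mdm2 and genes of growth arrest and cell death. With p21 present, the retinoblastoma proteins hold back the E2F factors, and the genes that E2F drives, those of nucleotide supply and DNA replication, stay low while entry into S phase is blocked. Genes of mitosis follow later in the cycle and are held down through the DREAM complex, which binds CHR elements beside CCAAT boxes.

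The start sites of the replication genes, whose dose difference is described in the most detail, were read for an E2F motif. The 250 bases before the start, from RefSeq on build GRCr8 (not the build of the deposited table), were available for 20 of the 25 tested members, with the first listed start used for each gene. The motif was written as TTTCGCGC or TTTGGCGC on either strand, and overlapping matches were counted. It was present in 7 of the 20 (35%), against 0.67% of all 27457 such windows and 1.27% of the 7808 found for tested genes. The motif was in 0 of 27 windows of p53 targets and in 1 of 19 of mitosis genes (5.26%), where the CHR letters TTTGAA were in 9 (47.4%, against 16% of all windows). A match is a description of the letters and not a bound site. The 5 windows shown are those of replication genes that hold the motif, whose 3 libraries of 20 Gy all stood above the 3 of 5 Gy at an unadjusted p under 0.05. They lie at chr19:13488563-13488812 (+) for Mcm5, chr12:22163179-22163428 (-) for Mcm7, chr3:160184670-160184919 (+) for Gins1, chrX:62342356-62342605 (-) for Pola1 and chr9:120776084-120776333 (-) for Tyms, and are written 5′ to 3′ with the motif in capitals.
Mcm5: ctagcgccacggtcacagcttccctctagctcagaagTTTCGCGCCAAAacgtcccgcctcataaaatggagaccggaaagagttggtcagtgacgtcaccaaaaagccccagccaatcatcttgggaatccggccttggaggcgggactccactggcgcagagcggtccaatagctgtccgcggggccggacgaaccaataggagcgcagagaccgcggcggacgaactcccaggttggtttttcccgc
Mcm7: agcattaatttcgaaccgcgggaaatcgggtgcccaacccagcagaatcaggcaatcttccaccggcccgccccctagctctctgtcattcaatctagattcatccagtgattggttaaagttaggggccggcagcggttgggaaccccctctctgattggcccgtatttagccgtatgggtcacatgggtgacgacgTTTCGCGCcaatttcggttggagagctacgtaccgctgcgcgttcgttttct
Gins1: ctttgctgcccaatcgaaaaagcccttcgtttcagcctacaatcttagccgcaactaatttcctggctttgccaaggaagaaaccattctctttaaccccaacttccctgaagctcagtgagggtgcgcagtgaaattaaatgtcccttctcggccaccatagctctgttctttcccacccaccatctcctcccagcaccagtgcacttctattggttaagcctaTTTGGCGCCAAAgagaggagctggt
Pola1: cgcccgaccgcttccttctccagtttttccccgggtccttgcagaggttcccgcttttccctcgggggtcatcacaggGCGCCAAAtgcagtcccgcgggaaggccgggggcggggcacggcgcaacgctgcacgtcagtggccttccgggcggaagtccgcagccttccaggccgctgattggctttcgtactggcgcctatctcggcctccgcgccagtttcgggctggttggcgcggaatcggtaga
Tyms: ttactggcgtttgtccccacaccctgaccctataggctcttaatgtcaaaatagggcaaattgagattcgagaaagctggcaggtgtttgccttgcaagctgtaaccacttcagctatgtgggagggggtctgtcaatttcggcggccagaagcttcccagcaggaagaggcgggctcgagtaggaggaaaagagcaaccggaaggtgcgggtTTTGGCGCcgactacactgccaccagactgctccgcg
In Mcm5 and in Gins1 the motif matched on both strands in overlapping letters, starting 213 and 209 bases and 25 and 21 bases before the start.

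At 12 h many genes had changed at each dose, and few were told apart between the doses. limma on log2(FPKM + 1), with 1 fit over all 5 groups, called 751 of 11310 genes after 5 Gy against control (6.64%) and 635 after 20 Gy (5.61%), at an adjusted p under 0.05 and a change of at least 1.5-fold. These comparisons share the control libraries, so their lists were not overlaid. With both doses averaged, 818 genes were called against control (7.23%), of which 408 rose (3.61%) and 410 fell (3.63%). Between the doses themselves, 6 genes were called (0.0531%), 5 higher (0.0442%) and 1 lower (0.00884%) after 20 Gy. Leaving out 1 library gave 5 to 17 calls, with 14 and 15 without control replicate 2 and 3 and 11 and 17 without 20 Gy replicate 2 and 3. The balance of directions also moved, to 7 higher and 10 lower in a fit of only the groups compared and to 2 higher and 2 lower with a pseudocount of 0.1. At an unadjusted p under 0.05 the doses differed in 697 genes (6.16%), of which 397 were higher (3.51%) and 300 lower (2.65%). Pearson's r of log2(FPKM + 1) between a 5 Gy and a 20 Gy library ran from 0.902 to 0.924 over 9 pairs. Pairs of the same dose had 0.911 to 0.924 at 5 Gy and 0.915 to 0.922 at 20 Gy, so the ranges overlapped.

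Few calls do not by themselves show that the doses acted alike, so the 95% interval of each difference was read as a bound. Among 6119 genes with a mean of at least 5 FPKM, the interval stayed within 1.5-fold for 3303 (54%) and within 2-fold for 4426 (72.3%). The share within 1.5-fold was 35.5% from 5 to 10 FPKM, 51.2% from 10 to 20 FPKM and 70.1% from 20 to 50 FPKM. For the rest, 3 libraries per dose do not bound the difference to that size.

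**Figure D1:**
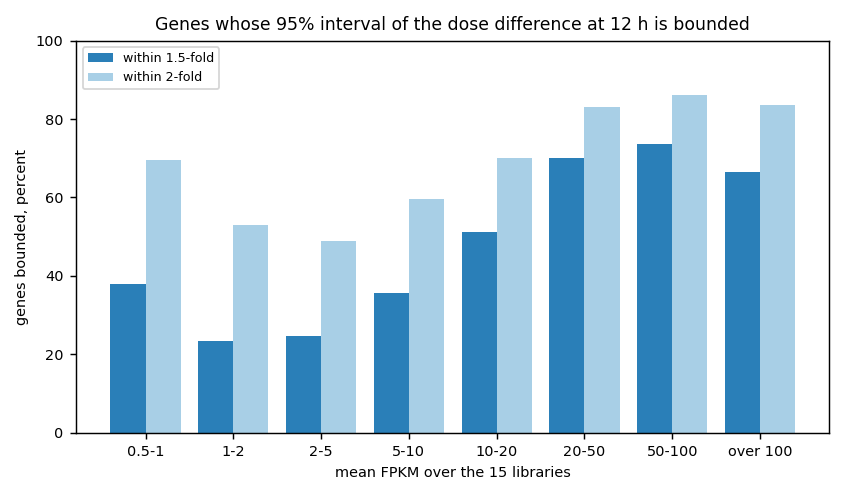
Percent of genes (y axis) whose 95% interval of the dose difference at 12 h stays within 1.5-fold (dark bars) or 2-fold (light bars), by mean FPKM over the 15 libraries (x axis). From 1 FPKM up to 50 FPKM the share within 1.5-fold rises from bin to bin, from 23.5% to 70.1%, and it is 73.7% from 50 to 100 FPKM.

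The 818 response genes were chosen on the mean of both doses, so a gene could pass through 1 dose alone. The 6 genes called between the doses are all among them, F11r for example standing at control level after 5 Gy. The 410 that fell had a median of -1.04 (log2) from control after 5 Gy and -0.89 after 20 Gy, and 280 of them (68.3%) were higher after 20 Gy, where 47.4% of all tested genes were. The 408 that rose had medians of 0.89 and 0.93 and were higher after 20 Gy in 226 cases (55.4%). Of the 465 response genes with a mean of at least 5 FPKM, 235 were bounded within 1.5-fold between the doses (50.5%), 147 of 254 that rose and 88 of 211 that fell.

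**Figure D2:**
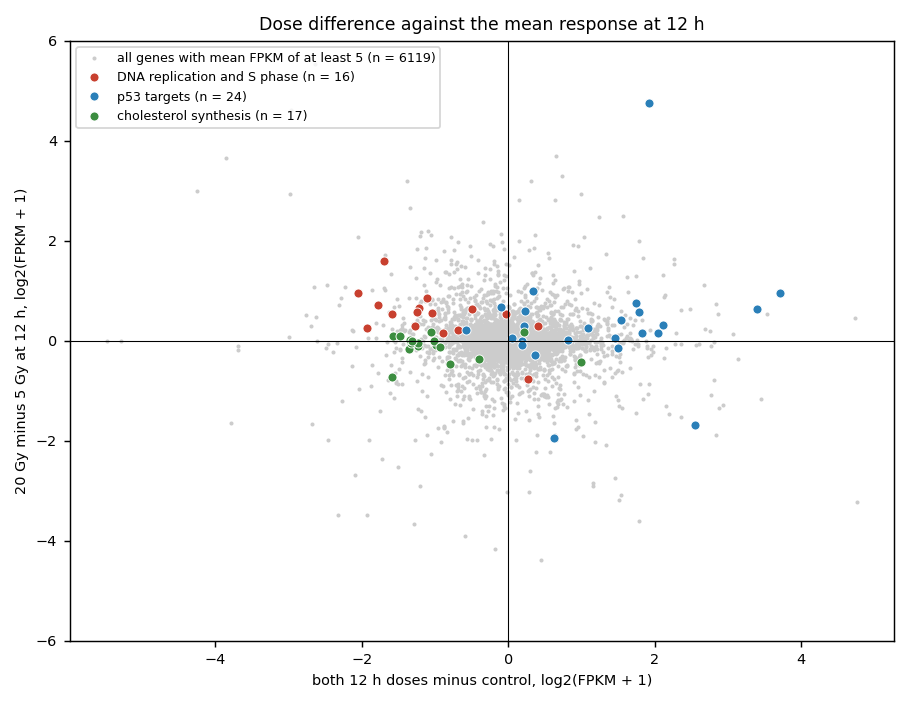
Each point is a gene with a mean of at least 5 FPKM, placed by the log2 difference of both 12 h doses from control (x axis) and the log2 difference of 20 Gy from 5 Gy at 12 h (y axis). Most replication genes (red) lie left of 0 and above it, p53 targets (blue) lie mostly to the right, and cholesterol synthesis genes (green) lie to the left, most of them close to a dose difference of 0.

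Most genes of DNA replication were below control at both doses, and most stood higher after 20 Gy than after 5 Gy. Of 28 genes listed, 27 were found and 25 tested, and their median difference from control was -1.48 after 5 Gy and -0.90 after 20 Gy on the log2 scale. This list, like the others here, was chosen with earlier results of these data known. Counts of its members beside all genes are therefore not independent evidence. With both doses together 18 of the 25 fell (3.63% of all genes) and none rose (3.61%). The median dose difference was 0.54 (log2), against -0.011 over all tested genes, and 23 of 25 were higher after 20 Gy. For 17 of them the 3 libraries of 20 Gy all stood above the 3 of 5 Gy, which held for 5.95% of all genes, and for 1, Gins2, all below (6.29%). At an unadjusted p under 0.05, 14 were higher (3.51% of all genes) and none lower (2.65%), and 1, Rrm1, passed the adjusted test (0.0442% called higher). When the unnamed transcripts of each gene's locus were added to its sum, 22 of 27 were separated upward (6.39% of all sums per locus), 21 were higher at an unadjusted p under 0.05 (3.87%) and 2, Rrm1 and Uhrf1, were called (0.117% called higher).

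Ribonucleotide reductase makes the deoxynucleotides for DNA synthesis. Rrm1, its large subunit (chromosome 1, 167538263 to 167562688, plus strand, build Rnor_6.0), stood at 47.8, 54.2 and 60.7 FPKM in the control libraries, at 19.5, 19.1 and 15.7 FPKM after 5 Gy and at 34.4, 37.8 and 28.5 FPKM after 20 Gy. The doses did not overlap and both lay below every control library. The dose difference was 0.85 ± 0.13 (log2, SE, n = 3 per dose, 95% interval 0.57 to 1.13) with an adjusted p of 0.0482, just inside the threshold. This call was lost when any 1 of 5 of the 6 exposed libraries was left out, with adjusted p values of up to 0.187, while the difference stayed between 0.76 and 0.90. It was also lost with a pseudocount of 0.1 (adjusted p = 0.0604) and in a fit of only the groups compared (0.242). Rrm2, the small subunit (chromosome 6, 43884678 to 43889515, plus strand), was at 23.0, 32.5 and 38.0 FPKM in the control, 7.99, 4.504 and 2.61 FPKM after 5 Gy and 19.8, 18.6 and 10.8 FPKM after 20 Gy. Its difference of 1.58 ± 0.34 (95% interval 0.84 to 2.32) was larger but its libraries varied more, and the adjusted p was 0.142. LOC100359539, named in the table only by its locus number, had 4.85, 5.09 and 2.95 FPKM after 5 Gy and 17.6, 19.8 and 11.6 FPKM after 20 Gy, a difference of 1.71 ± 0.28 with an adjusted p of 0.0605 (0.0388 without 20 Gy replicate 3).

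Pclaf, a factor that binds the replication clamp, was at 32.5, 37.6 and 53.4 FPKM in the control, 5.72, 4.77 and 1.95 FPKM after 5 Gy and 23.9, 24.6 and 12.5 FPKM after 20 Gy, so that the lowest library of 20 Gy stood above the highest of 5 Gy and below the lowest control. The difference of 2.08 ± 0.39 (95% interval 1.22 to 2.93) had an adjusted p of 0.112. The clamp itself, Pcna, was at 90.8, 118 and 131 FPKM in the control, 41.3, 37.8 and 45.8 FPKM after 5 Gy and 48.3, 53.7 and 50.7 FPKM after 20 Gy, a dose difference of 0.29 ± 0.11 bounded at 0.54. Rfc3, a subunit of the clamp loader, differed by 0.56 ± 0.14 and Rfc4, another subunit, by 0.15 ± 0.29, the latter with overlapping doses.

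The MCM proteins form the helicase that opens the DNA. Mcm5 stood at 21.1, 26.8 and 26.1 FPKM in the control, at 4.86, 3.89 and 2.04 FPKM after 5 Gy and at 7.99, 8.50 and 6.43 FPKM after 20 Gy, a dose difference of 0.95 ± 0.26 (95% interval 0.39 to 1.52). Mcm3 differed by 0.71 ± 0.24 and Mcm7 by 0.54 ± 0.25, both without overlap of the doses. Mcm6, which fell from 28.4, 35.3 and 40.4 FPKM, reached 8.64, 8.20 and 5.88 FPKM after 5 Gy and 9.67, 10.3 and 7.59 FPKM after 20 Gy, and here the doses overlapped (difference 0.25 ± 0.20, interval -0.17 to 0.68). Mcm4 had 0.772, 0.0146 and 7.09 FPKM after 5 Gy and 0, 0 and 9.33 FPKM after 20 Gy in its named transcripts, and the sum over its locus differed by 0.51 ± 0.12. Mcm2 differed by 0.65 ± 0.34 in its named transcripts and by 0.29 ± 0.13 over its locus.

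Among genes that load and start the helicase, Cdc45 had 0.380, 0.403 and 0.245 FPKM after 5 Gy and 0.964, 1.15 and 0.866 FPKM after 20 Gy, against 2.12, 3.06 and 3.12 FPKM in the control, a dose difference of 0.57 ± 0.12 (95% interval 0.30 to 0.84). Gins1 of the GINS complex differed by 0.75 ± 0.23. Gins2 of the same complex went the other way, with 3.77, 5.14 and 3.47 FPKM after 5 Gy and 1.31, 2.50 and 2.34 FPKM after 20 Gy, a difference of -0.76 ± 0.74 whose interval of -2.37 to 0.85 covers 0. Pola1, the catalytic subunit of the polymerase that starts new strands, stood at 4.501, 5.62 and 4.36 FPKM and 7.996, 8.04 and 6.64 FPKM, a difference of 0.56 ± 0.15. Uhrf1, which carries DNA methylation through replication, was at 6.31, 8.57 and 14.4 FPKM in the control, 1.63, 0.231 and 0.304 FPKM after 5 Gy and 4.73, 3.55 and 1.95 FPKM after 20 Gy. Over its whole locus the Uhrf1 levels were 2.42, 2.30 and 1.57 FPKM after 5 Gy and 7.51, 7.49 and 5.36 FPKM after 20 Gy, a difference of 1.33 ± 0.19 that was called (adjusted p = 0.0213). Tyms, which makes thymidylate, did not fall with the others. It had 25.0, 26.3 and 30.8 FPKM in the control, 32.7, 33.9 and 32.8 FPKM after 5 Gy and 41.7, 41.3 and 38.6 FPKM after 20 Gy, a dose difference of 0.28 ± 0.079.

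**Figure D3:**
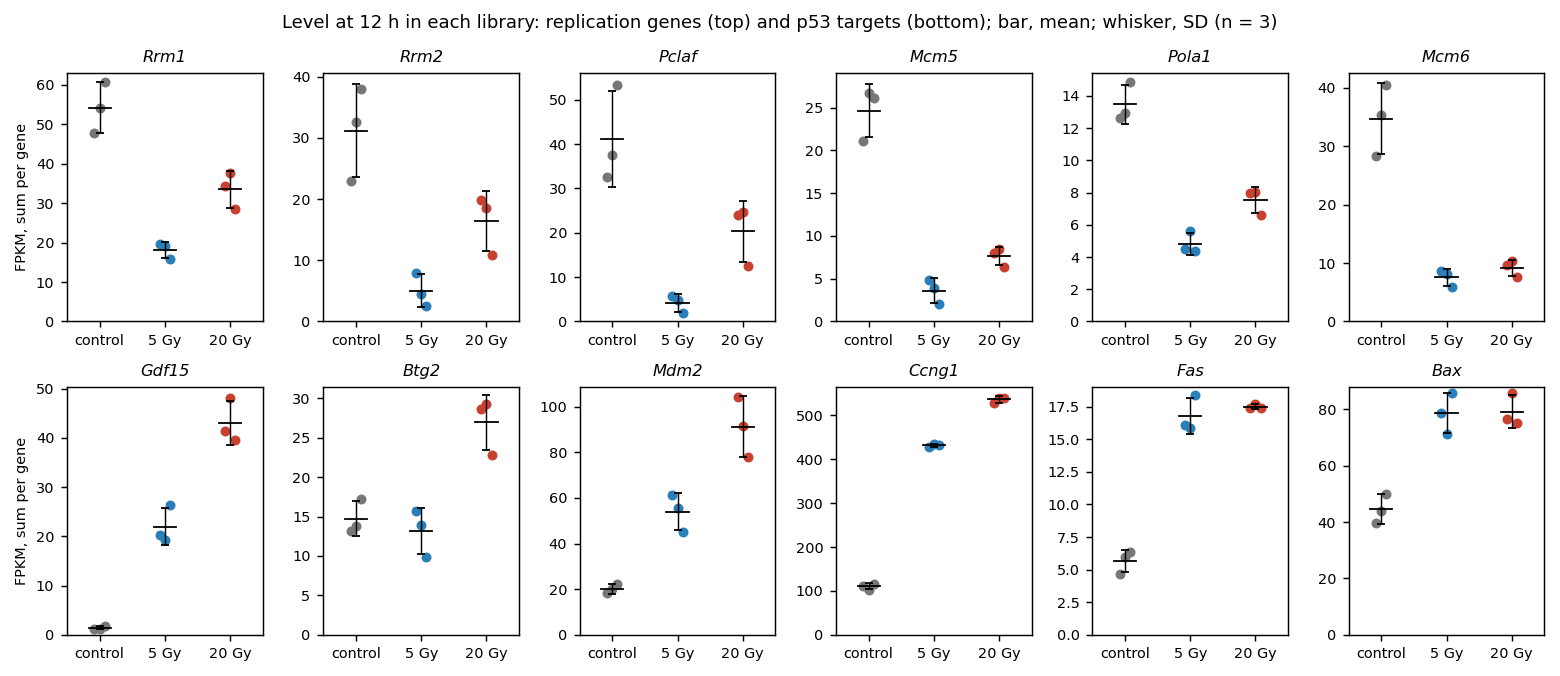
FPKM (y axis) in each library of the control, 5 Gy and 20 Gy groups at 12 h (x axis), with the mean (bar) and SD (whisker, n = 3). In the top row, genes of DNA replication lie below control at both doses, with 20 Gy above 5 Gy except for Mcm6, where the doses overlap. In the bottom row, Gdf15, Mdm2 and Ccng1 lie above control and are higher after 20 Gy, Btg2 is above control after 20 Gy alone, and Fas and Bax are raised with the doses overlapping.

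The genes of G2 and mitosis behaved less evenly. Of 30 listed, 29 were found and 23 tested, and their medians from control were -1.18 after 5 Gy and -0.77 after 20 Gy. The median dose difference was 0.28, with 18 of 23 higher after 20 Gy (47.4% of all genes), 7 separated upward (5.95%), none downward, and none called (0.0442% called higher). The size rested on single libraries, with a median of 0.043 and 12 of 23 higher without 5 Gy replicate 3 and a median of 0.68 without 20 Gy replicate 3. It was 0.50 and 0.46 without 5 Gy replicate 1 and 2, and 0.44 with a pseudocount of 0.1. Kif11, a spindle motor, had 2.75, 3.54 and 2.48 FPKM after 5 Gy and 6.97, 6.28 and 4.80 FPKM after 20 Gy (0.83 ± 0.20), and cyclin A2 (Ccna2) had 9.46, 9.02 and 7.04 FPKM and 19.4, 18.1 and 11.5 FPKM (0.84 ± 0.27). Both were separated between the doses. The late mitotic genes Cdc20 (-0.23 ± 0.20), Ccnb1 (-0.24 ± 0.27), Ube2c (-0.077 ± 0.32) and Plk1 (0.072 ± 0.16) overlapped between the doses, although Cdc20 and Plk1 fell from control with both doses together (adjusted p = 0.00163 and 8.22e-04). Mki67, the marker of cycling cells, missed the filter in its named transcripts. Over its locus it stood at 12.7, 12.4 and 13.1 FPKM in the control, 3.05, 3.82 and 2.82 FPKM after 5 Gy and 8.23, 9.04 and 7.62 FPKM after 20 Gy, a difference of 1.14 ± 0.18 that was called (adjusted p = 0.0318).

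In the list of break repair and checkpoint genes, 20 of 25 were tested and the median dose difference was 0.043. It was 0.097 without 5 Gy replicate 3, 0.082 without 5 Gy replicate 1, 0.075 without 20 Gy replicate 2 and -5.0e-04 without 20 Gy replicate 3. In the sums per locus it was 0.16, with 8 of 23 separated upward (6.39%), 7 higher at an unadjusted p under 0.05 (3.87%) and 1 called (0.117%). By name the 4 genes separated upward (5.95%) were Brca1 (0.70 ± 0.16) and Rad54l (0.49 ± 0.14) of homologous recombination, the adaptor Mdc1 (0.58 ± 0.39) and the histone H2afx (0.32 ± 0.11), none of them called. Brca1 was at 3.08, 2.95 and 3.83 FPKM in the control, 1.02, 1.07 and 0.618 FPKM after 5 Gy and 2.14, 2.07 and 2.00 FPKM after 20 Gy. The end-joining genes Xrcc5 (-0.072 ± 0.086, interval -0.26 to 0.12) and Xrcc6 (-0.046 ± 0.16, interval -0.39 to 0.29) were bounded within 1.5-fold.

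Many p53 targets rose, and some of them were higher after 20 Gy than after 5 Gy. Of 35 listed, 33 were found and 31 tested, and with both doses together 13 rose (3.61% of all genes) and none fell (3.63%). For 20 Gy by itself against control 12 rose (3.08%) and 1 fell (2.54%). With both doses together in the sums per locus, 17 of 32 rose and 1 fell. Of all 17895 sums per locus, 1736 were called against control there, in either direction. The medians from control were 0.51 after 5 Gy and 0.80 after 20 Gy, and the median dose difference was 0.15 with 21 of 31 above 0. The median was 0.097 without 5 Gy replicate 2 and 0.20 without 20 Gy replicate 2. The doses were separated upward for 10 and downward for 3 (background 5.95% and 6.29%). At an unadjusted p under 0.05, 9 were higher (3.51% of all genes) and 2 lower (2.65%), and none was called. In the sums per locus 14 of 32 were separated upward (6.39% of all sums per locus), and Gdf15 and Btg2 were called (0.117% called higher).

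Gdf15 is a secreted stress cytokine (chromosome 16, 20555395 to 20557978, plus strand). With both doses together it showed the largest rise among the p53 targets that were tested by name. It was at 1.25, 1.22 and 1.82 FPKM in the control, 20.4, 19.2 and 26.4 FPKM after 5 Gy and 41.3, 48.1 and 39.5 FPKM after 20 Gy, and no library of 1 dose overlapped the other. The dose difference of 0.94 ± 0.14 (95% interval 0.63 to 1.26) had an adjusted p of 0.0519, just outside the threshold, and 0.0243 in the fit of sums per locus. By name Gdf15 was called on leaving out control replicate 2 or 3 or 5 Gy replicate 3, with adjusted p values of 0.0303 to 0.0465. Btg2, which slows the cycle, was at 13.2, 13.8 and 17.2 FPKM in the control, 15.7, 14.0 and 9.92 FPKM after 5 Gy and 28.7, 29.2 and 22.9 FPKM after 20 Gy. Its 5 Gy libraries overlapped the control while its 20 Gy libraries lay above both, with a dose difference of 0.99 ± 0.16 (adjusted p = 0.0591, and 0.0330 per locus). Btg2 was called by name without control replicate 3 (adjusted p = 0.0481) or 20 Gy replicate 3 (0.0440).

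Mdm2, the ligase that removes p53, had 18.1, 19.9 and 22.2 FPKM in the control, 61.2, 55.4 and 45.2 FPKM after 5 Gy and 104, 91.4 and 77.9 FPKM after 20 Gy, a dose difference of 0.75 ± 0.16 (95% interval 0.40 to 1.10, adjusted p = 0.142). Ccng1 (cyclin G1), which also acts on Mdm2, showed a small and precise step from 429, 436 and 433 FPKM to 528, 541 and 541 FPKM, above 112, 103 and 116 FPKM in the control. Its dose difference of 0.31 ± 0.072 stayed under 1.5-fold over the whole interval of 0.15 to 0.47. Plk2 had 16.1, 13.2 and 13.02 FPKM and 21.0, 20.6 and 22.4 FPKM (0.57 ± 0.12), Phlda3, a brake on Akt signalling, differed by 0.42 ± 0.14, the phosphatase Ppm1d by 0.29 ± 0.10 and Sesn2 by 0.25 ± 0.11. All were separated between the doses, and none was called.

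The arrest gene Cdkn1a (p21) could be read less well. Its named transcripts gave 23.6, 0.209 and 405 FPKM after 5 Gy and 563, 621 and 681 FPKM after 20 Gy, against 51.8, 9.22 and 56.5 FPKM in the control, so that 1 library of 5 Gy was near 0 while another came close to the level of 20 Gy. Over the whole locus the levels were 52.1, 31.6 and 56.8 FPKM in the control, 189, 171 and 410.3 FPKM after 5 Gy and 572, 632 and 689 FPKM after 20 Gy. The difference was 4.76 ± 1.64 by name and 1.40 ± 0.33 by locus (adjusted p = 0.570 and 0.155). In both sums the 3 libraries of 20 Gy stood above the 3 of 5 Gy.

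Among genes of cell death in the list, Fas and Bax did not show this step. The death receptor Fas rose from 4.69, 5.97 and 6.35 FPKM to 16.1, 15.9 and 18.4 FPKM after 5 Gy and 17.4, 17.7 and 17.4 FPKM after 20 Gy, with a dose difference of 0.060 ± 0.10 (95% interval -0.15 to 0.27). Bax, which opens the outer mitochondrial membrane, was at 39.5, 43.9 and 50.1 FPKM in the control, 78.7, 71.4 and 85.7 FPKM after 5 Gy and 76.6, 85.8 and 75.2 FPKM after 20 Gy, a difference of 0.013 ± 0.13 (interval -0.28 to 0.30). The intervals of Fas and Bax exclude a dose difference of 1.5-fold. For Tp53inp1 (0.15 ± 0.18) and Ephx1 (0.15 ± 0.10) the difference was likewise bounded within 1.5-fold, while for Pmaip1 (0.67 ± 0.62) and Aen (0.63 ± 1.07) it was not. Of the 3 targets separated downward, Ddb2 had 1.22, 1.70 and 1.41 FPKM after 5 Gy and 0, 0.854 and 0.0994 FPKM after 20 Gy. Over their loci Ddb2 differed by -0.22 ± 0.14 and Xpc by -0.49 ± 0.12, both of nucleotide excision repair, and Sesn1 by -0.24 ± 0.18.

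**Figure D4:**
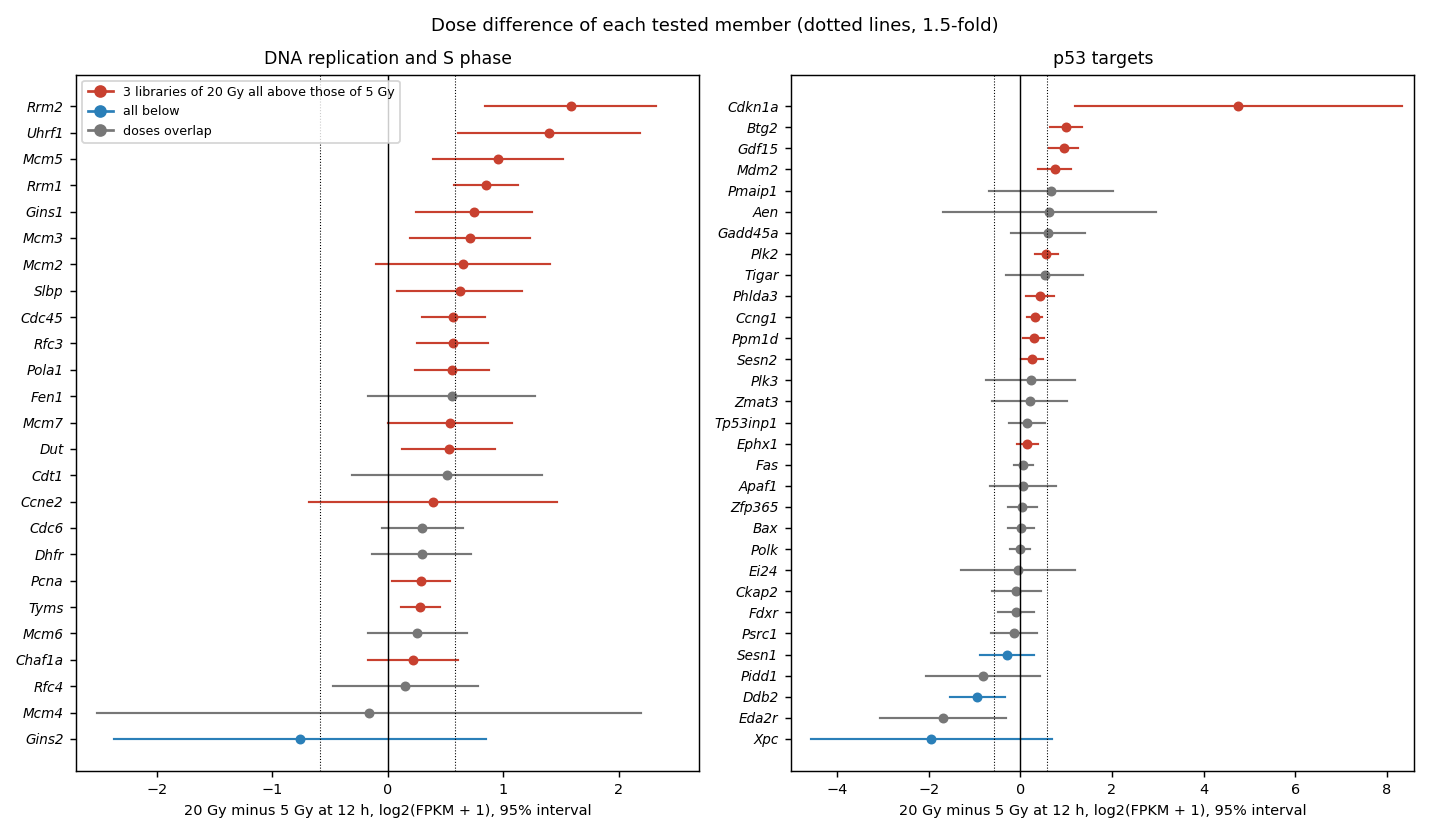
Log2 difference of 20 Gy from 5 Gy at 12 h (x axis, log2(FPKM + 1) scale) with its 95% interval for each tested gene (y axis) of the replication list (left) and the p53 list (right). Red marks genes whose 3 libraries of 20 Gy all lie above those of 5 Gy, 17 on the left and 10 on the right. Blue marks those all below, 1 and 3, grey marks overlap, and dotted lines mark 1.5-fold.

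The 6 genes called between the doses by name were F11r, Utp25, AABR07014275.1, Aunip, Mllt11 and Rrm1. In F11r (junctional adhesion molecule A, chromosome 13, 89826254 to 89850612, plus strand) the named transcript was at 21.8, 22.2 and 23.8 FPKM after 20 Gy and at 0.0219 FPKM or less in each library of the control and of 5 Gy at 12 h. Among the control and 12 h groups, only that of 20 Gy thus lifted the mean used by the filter. The near-0 libraries also entered the spread of the main fit, with an SE of 0.088 and an adjusted p of 3.83e-11. In the fit of only the groups compared the SE was 0.12 and the adjusted p 7.48e-04. Over its locus, with unnamed transcripts added, F11r was at 28.0, 29.2 and 28.3 FPKM after 5 Gy and 25.8, 26.5 and 28.1 FPKM after 20 Gy, a difference of -0.085 ± 0.10 (adjusted p = 0.916). The difference was in the named transcript and did not pass the test over the locus. AABR07014275.1 (chromosome 14, 7405019 to 7415385, minus strand) was at 0.204, 0.259 and 0.0935 FPKM by name after 5 Gy and 4.54, 4.59 and 3.63 FPKM after 20 Gy, and it likewise turned from 2.14 ± 0.24 by name to -0.30 ± 0.17 by locus. Utp25, a factor of ribosome assembly (chromosome 13, 111828043 to 111849653, minus strand), was at 3.99, 4.53 and 3.90 FPKM by name after 5 Gy and 0.0103, 0.0328 and 0.0322 FPKM after 20 Gy. By locus it was at 5.95, 6.37 and 6.31 FPKM and 3.55, 3.72 and 3.67 FPKM, a smaller difference of -0.63 ± 0.083 that was still called (adjusted p = 0.0169).

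Aunip, Mllt11 and Rrm1 were called in both sums. Aunip (chromosome 5, 152721940 to 152734572, plus strand), which binds Aurora A and acts at broken DNA ends, was at 1.39, 1.71 and 1.46 FPKM in the control, 0.141, 0.101 and 0.0420 FPKM after 5 Gy and 1.78, 1.41 and 1.09 FPKM after 20 Gy. Its 20 Gy libraries lay about the control and its 5 Gy libraries below both (dose difference 1.14 ± 0.14, adjusted p = 0.0117). Mllt11 (chromosome 2, 196392938 to 196402106, minus strand) was at 0.237, 0.345 and 0.204 FPKM in the control, 0.385, 0.455 and 0.263 FPKM after 5 Gy and 2.58, 1.53 and 1.38 FPKM after 20 Gy (1.03 ± 0.14, adjusted p = 0.0309). The call of Aunip was lost without 5 Gy replicate 3 (adjusted p = 0.0584) or 20 Gy replicate 1 (0.0507), and that of Mllt11 without any 1 of the 5 Gy libraries (0.0646 to 0.136). Both are low genes, and both calls were lost with a pseudocount of 0.1 (adjusted p = 0.103 and 0.114) and in a fit of only the groups compared (0.0987 and 0.312).

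**Figure D5:**
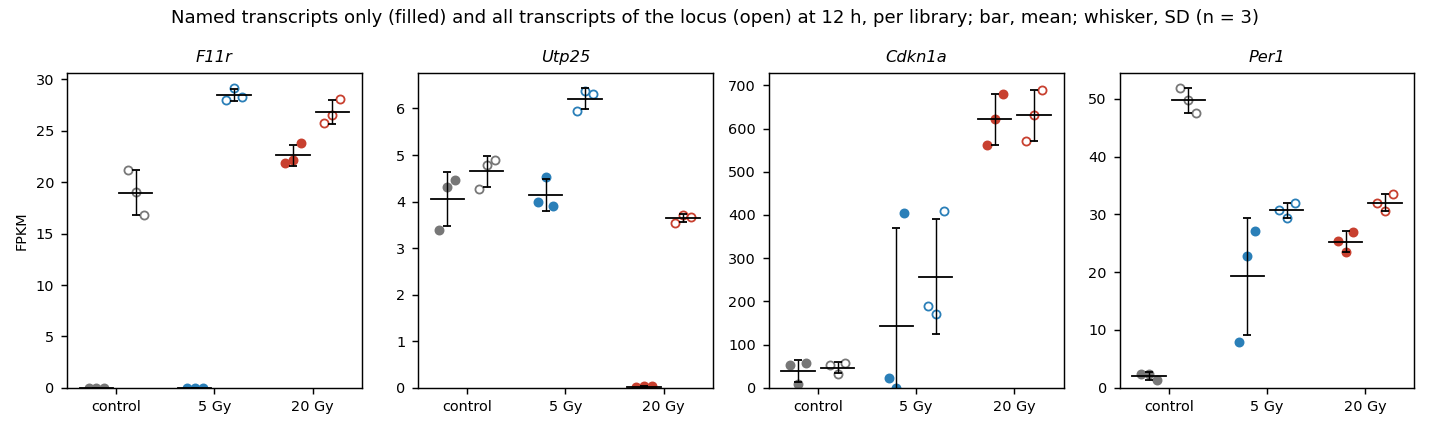
FPKM (y axis) per library at 12 h in the control, 5 Gy and 20 Gy groups (x axis) for 4 genes, from the named transcripts (filled) and from all transcripts of the locus (open), with mean (bar) and SD (whisker, n = 3). F11r by name is seen after 20 Gy alone but is alike at both doses by locus, Utp25 keeps a smaller difference, the 5 Gy libraries of Cdkn1a draw closer together, and Per1 lies above control by name and below it by locus.

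Summing per locus gave 22 calls among 17895 genes and unnamed loci (0.123%, with 7.12% at an unadjusted p under 0.05), of which 21 were higher after 20 Gy (0.117%). These names were seen only after that fit. Besides Uhrf1, Rrm1, Mki67, Aunip, LOC100359539, Gdf15 and Btg2 they included E2f7, a repressor of E2F targets (5 Gy 0.0429, 0.223 and 0.211 FPKM, 20 Gy 1.47, 1.37 and 1.41 FPKM, difference 1.06 ± 0.11, adjusted p = 0.00435). The mitotic kinase gene Pbk went from 1.85, 1.68 and 1.37 FPKM to 7.74, 7.62 and 5.21 FPKM (1.56 ± 0.17). Atad2, a chromatin ATPase, went from 3.11, 3.29 and 2.76 FPKM to 6.86, 6.75 and 6.12 FPKM (0.90 ± 0.13), and separase (Espl1), the nuclease Exo1, the condensin subunit Ncapd3 and the cohesin acetyltransferase Esco2 were higher by 0.99 ± 0.14, 1.08 ± 0.16, 0.77 ± 0.12 and 0.87 ± 0.15. Iqgap3 and Fancb were also higher. From E2f7 to Fancb, the genes just named stood below every control library after 5 Gy. Outside the cell cycle, the integrin Itgav had 42.6, 42.6 and 42.7 FPKM after 5 Gy and 68.5, 59.2 and 68.3 FPKM after 20 Gy, against 56.3, 45.7 and 53.1 FPKM in the control.

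By name, 1 gene was called lower after 20 Gy, and those that follow missed the adjusted test. Sfrp4, a secreted antagonist of Wnt signalling, was at 37.4, 39.5 and 42.1 FPKM in the control, 20.0, 21.6 and 20.3 FPKM after 5 Gy and 13.5, 15.7 and 14.4 FPKM after 20 Gy. Its dose difference of -0.48 ± 0.078 (95% interval -0.65 to -0.31) took it further from control, with an adjusted p of 0.0591. Tmem128 had 26.1, 30.5 and 25.1 FPKM after 5 Gy and 3.39, 6.66 and 5.55 FPKM after 20 Gy (-2.22 ± 0.43), the 5 Gy group standing above the control at 6.10, 5.55 and 13.5 FPKM. Ccdc97 differed by -0.81 ± 0.17 and was called without control replicate 2 (adjusted p = 0.0438). Ldb1 (-0.79 ± 0.16) and Arhgef25 (-3.50 ± 0.75) shrank to -0.18 ± 0.080 and -0.28 ± 0.11 by locus. By name Arhgef25 was called without 20 Gy replicate 2, with a difference of -4.63 (adjusted p = 7.14e-04).

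Of 18 tested genes of cholesterol synthesis, 12 fell from control with both doses together (3.63% of all genes) and none rose. The medians were -1.16 after 5 Gy and -1.14 after 20 Gy, and the median dose difference was -0.049 with none at an unadjusted p under 0.05. The sign of that median turned on single libraries, from -0.19 with 1 of 18 higher without 20 Gy replicate 1 and -0.17 without 5 Gy replicate 3 to 0.11 with 14 of 18 higher without 20 Gy replicate 3. It was 0.061 and 0.011 without 5 Gy replicate 1 and 2. Squalene synthase, Fdft1, was at 59.5, 74.9 and 73.8 FPKM in the control, 36.9, 34.4 and 30.3 FPKM after 5 Gy and 39.3, 34.1 and 28.2 FPKM after 20 Gy, with overlapping doses (-0.0069 ± 0.13, interval -0.29 to 0.28). Intervals were wider for Mvd (-1.47 to 0.010) and Sqle (-0.73 to 0.62).

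Among the genes of the response that changed most, the metalloprotease Adam8 went from 0 in each control library to 17.0, 19.3 and 31.0 FPKM after 5 Gy and 21.8, 30.0 and 41.3 FPKM after 20 Gy, with overlapping doses (0.45 ± 0.27). Gdf6, a growth factor of the BMP family, rose from 3.71, 3.93 and 3.94 FPKM to 24.5, 22.2 and 16.6 FPKM and 31.5, 33.4 and 33.7 FPKM, and Svop from under 0.12 FPKM to 4.05, 5.01 and 5.67 FPKM and 6.58, 9.67 and 10.5 FPKM. In both genes the doses were separated, by 0.63 ± 0.12 and 0.73 ± 0.17, though neither was called. The splicing kinase Clk1 (0.14 ± 0.26) rose at both doses with overlapping libraries. The kinase Rock1 and the transporter Abcb4 also rose, with wide intervals for the dose difference (-1.14 to 1.51 and -2.63 to 1.07). The rise of Abcb4 missed the test without any 1 control library or without 20 Gy replicate 2 or 3 (adjusted p = 0.0517 to 0.0876), and over its locus Rock1 differed from control by 0.47 ± 0.13, which was under 1.5-fold. Per1, a clock gene, rose by 2.86 ± 0.30 from control in its named transcripts and fell by 0.65 over its locus, so its direction is uncertain. The dose difference of Per1 was 0.53 ± 0.35 by name and 0.057 ± 0.12 by locus.

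On the falling side, the Wnt receptor Fzd7 dropped from 54.2, 57.7 and 41.5 FPKM to 0.151, 0.174 and 0.160 FPKM and 0.134, 0.1497 and 0.194 FPKM by name, with a dose difference of -0.0034 ± 0.13, and by 2.22 (log2) over its locus. Fads1, a fatty acid desaturase, had 43.9, 58.7 and 49.1 FPKM in the control, 10.9, 9.92 and 8.05 FPKM after 5 Gy and 9.71, 8.85 and 5.80 FPKM after 20 Gy (-0.24 ± 0.21). The matrix gene Ccn1 (dose difference 0.51 ± 0.28) and the immediate early gene Nr4a1 (0.47 ± 0.30) fell at both doses with overlapping libraries, and Egr1 (1.12 ± 0.58) fell with both doses together. Camk2d, Traf3ip2 and AABR07025010.1 fell by name, but over their loci the differences from control were 0.34 ± 0.19, -0.21 ± 0.10 and -0.10 ± 0.32, none of them called. By name AABR07025010.1 missed the test on leaving out any 1 library of the control, 5 Gy replicate 1 or 3, or 20 Gy replicate 1 or 3 (adjusted p = 0.0834 to 0.141). Over the 818 response genes, 791 kept their direction from control in the sums per locus, 651 were called there in the same direction and 3 in the opposite one.

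In the list of immediate early genes, which answer growth signals within minutes, 10 of 23 tested fell with both doses together (3.63% of all genes) and 1 rose (3.61%). The median dose difference was 0.14, and 5 were separated upward (5.95%). It was 0.051 and 0.27 without 20 Gy replicate 1 and 3, 0.29 per locus and 0.32 with a pseudocount of 0.1. Junb was at 63.2, 64.0 and 65.5 FPKM in the control, 23.6, 23.6 and 12.6 FPKM after 5 Gy and 43.5, 39.2 and 26.5 FPKM after 20 Gy (0.86 ± 0.22, adjusted p = 0.264). Ier5, the gene of the list that rose, was at 33.2, 31.3 and 31.2 FPKM in the control, 48.6, 45.4 and 45.4 FPKM after 5 Gy and 56.9, 62.1 and 55.3 FPKM after 20 Gy, a difference of 0.31 ± 0.071. Fos differed by 0.72 ± 0.25 and Jun by 0.42 ± 0.16. Heat shock genes had a median dose difference of -0.015 over 18 tested, and inflammatory NF-kB genes one of 0.17 over 14, interferon response genes one of 0.057 over 15 and NRF2 antioxidant genes one of 0.14 over 13. None of these genes was called between the doses. Leaving out 1 exposed library moved the medians between -0.038 and 0.023 for heat shock, 0.14 and 0.25 for NF-kB, 0.025 and 0.20 for interferon response and 0.061 and 0.24 for NRF2 genes. Of the 17 tested genes of the ER and integrated stress responses all had a value above 0, with a median of 0.11 and 4 separated upward (5.95%). Without 5 Gy replicate 3 the count above 0 was 11 and the median 0.073, and the median was 0.20 and 0.32 without 5 Gy replicate 1 and 2 and 0.22 without 20 Gy replicate 3. The clock genes had a median of -6.7e-05 over 16, which ranged from -0.13 to 0.029 on leaving out 1 exposed library and was -0.14 per locus.

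Store-operated calcium entry, in which STIM sensors open ORAI channels, showed no gene separated between the doses by name, and 1 of 9 separated upward, at an unadjusted p under 0.05, in the sums per locus (6.39% and 3.87%). Of its 8 tested genes, 5 had a mean of at least 5 FPKM, and 4 of these were bounded within 1.5-fold (54% of all such genes). Orai2 rose with both doses together, from 3.34, 3.32 and 3.13 FPKM to 5.06, 5.36 and 6.31 FPKM after 5 Gy and 5.09, 5.398 and 6.44 FPKM after 20 Gy, a dose difference of 0.014 ± 0.12 (95% interval -0.25 to 0.28). The list of the study's genes was taken without its entries that carry only RNA family numbers. Of the 38 left, 25 rose (3.61% of all genes) and 6 fell (3.63%) with both doses together. That count is not independent evidence because the study chose them on these libraries. Between the doses none was called and 6 were separated upward (5.95%). Of the 36 with a mean of at least 5 FPKM, 19 were bounded within 1.5-fold (54% of all such genes), Hmox1 (heme oxygenase 1, -0.17 to 0.32) among them.

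Bounds were ranked by the end of the interval farther from 0, over response genes with a mean of at least 5 FPKM. The tightest fell on Glrx3, an iron-sulfur carrier, at 64.2, 62.1 and 70.0 FPKM in the control, 114, 116 and 133 FPKM after 5 Gy and 119.7, 121 and 114 FPKM after 20 Gy (-0.026 ± 0.074, interval -0.19 to 0.14). The desaturase Scd2 (-0.17 to 0.20), the splicing factor Sf3a3 (-0.15 to 0.20), the proton pump subunit Atp6v1d (-0.21 to 0.15) and Mk1 (-0.18 to 0.21) followed. By the same measure the loosest fell on Arhgef25 (-5.14 to -1.85), Eda2r (-3.07 to -0.32), LOC100365839 (-2.99 to 0.66), Aen (-1.69 to 2.96) and Gtf2h1 (-2.94 to 0.25). Over its locus Eda2r differed by -0.19 (interval -0.60 to 0.23). By name its interval covered 0 without 5 Gy replicate 3 (-3.11 to 0.093) or without 20 Gy replicate 2 (-1.55 to 0.036). In Gtf2h1, of the repair factor TFIIH, the 20 Gy libraries held 0.284, 13.1 and 15.1 FPKM by name, and the difference by locus was -0.22 ± 0.13. For LOC100365839, Aen and Gtf2h1 the interval covers both 0 and a change beyond 1.5-fold.

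The same contrast was taken at 24 h between other libraries, though the spread came from the same fit as at 12 h. It gave 112 called genes (0.99%), of which 57 were higher after 20 Gy (0.504%). The replication genes had a median dose difference of 0.21 there, with 19 of 25 higher after 20 Gy (43.8% of all genes) and 8 higher at an unadjusted p under 0.05 (5.25%). Rrm1 was called at 24 h as well (0.74 ± 0.13, adjusted p = 0.0189), and so were Pclaf (1.97 ± 0.39, adjusted p = 0.0355) and LOC100359539 (1.44 ± 0.28, adjusted p = 0.0330). The mitotic list had a median of 0.74 with 21 of 23 above 0, and Ccna2 (1.45 ± 0.27) and Top2a (1.41 ± 0.26) were called. The p53 targets had a median of -0.014 with 14 of 31 above 0. Gdf15 differed by 0.46 ± 0.14 and Mdm2 by 0.034 ± 0.16 at 24 h, neither called. A test of whether the dose difference itself changed from 12 h to 24 h passed an adjusted p under 0.05 for 27 genes (0.239%), and none of the tested replication genes or p53 targets was among them.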

How the data were processed

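RNA of cells labelled as rat BMECs (15 libraries, 3 per group) was sequenced from poly(A)-selected libraries, and the 6 exposed libraries at 12 h were compared. Per the labels and the study's methods, the authors aligned the reads with HISAT2 (2.0.13) to Rnor_6.0, assembled transcripts with StringTie and computed FPKM. The deposited table gives FPKM for 85322 transcripts, of which 41064 carry a gene name and the unnamed ones held 29.1 to 33.8% of each library's FPKM. The study names edgeR, but no count test was used because the values are FPKM and not counts. From the steps of low values the aligned depth was estimated as 5.44 to 7.49 gigabases per library, with 79 to 84% of steps whole within 0.05.

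FPKM was summed per gene name, a pseudocount of 1 was added, and limma (3.58.1, R 4.3.3) was fitted to log2 values of genes with a mean of at least 0.5 FPKM, with 1 mean for each of the 5 groups and 10 residual degrees of freedom. Genes were called at a Benjamini-Hochberg adjusted p under 0.05 and 1.5-fold, two-sided. Values are log2 differences ± SE, and 95% intervals are not adjusted over genes. Values are on the log2(FPKM + 1) scale, which understates changes of low genes. An exact permutation test of 3 against 3 libraries cannot go below 0.1. The fit was tested on simulated data.

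The named genes were all calls between the doses, the 5 clearest separated genes in each direction, the 8 largest rises and falls of the response, the 5 tightest and loosest bounds, and members of gene lists. The members and lists were chosen with earlier results of these data known. Alternatives changed the pseudocount, filter, scaling, transcript summing, fold limit, fit and libraries. Sums per locus add unnamed transcripts to the 1 gene name of their locus. Promoters came from RefSeq tables (GRCr8). A few listed genes are not reported here.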

Additional observations from a re-analysis of the deposited data

Results flagged for a closer look

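The dose difference at 24 h was tested against that at 12 h, on the log2(FPKM + 1) scale, and for 9 genes named or listed here the change from 12 h to 24 h passed the adjusted test (limma, adjusted p under 0.05). Jun, a subunit of the AP-1 factor, differed by 0.42 ± 0.16 between the doses at 12 h and by 2.94 ± 0.16 at 24 h, where 5 Gy libraries held 18.7, 18.5 and 18.4 FPKM and 20 Gy libraries 189.9, 122 and 143 FPKM, a change of 2.52 ± 0.22 (adjusted p = 3.12e-04). The stress factor Atf3 changed by 1.91 ± 0.21 (adjusted p = 0.00147) and was under 0.15 FPKM in the 6 exposed libraries at 12 h. The heat shock genes Hspa1b, Dnajb1 and Bag3 changed by 1.42 ± 0.20, 1.498 ± 0.15 and 1.75 ± 0.18 (adjusted p = 0.0120, 0.00115 and 0.00115). Hspa1b was at 13.6, 14.8 and 14.4 FPKM after 20 Gy at 12 h and at 5612, 4706 and 4553 FPKM at 24 h, and its sequence has close copies whose reads may be shared. Adam8 changed by 2.15 ± 0.38 (adjusted p = 0.0454), with 3.75, 6.39 and 6.11 FPKM after 5 Gy and 45.1, 30.9 and 37.1 FPKM after 20 Gy at 24 h.

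For 3 genes the change was large by name and smaller in size over the whole locus, with the opposite sign for F11r and AABR07014275.1. F11r changed by -4.56 ± 0.12 by name and by 0.14 ± 0.14 by locus, AABR07014275.1 by -2.17 ± 0.34 and 0.41 ± 0.24, and Utp25 by 2.17 ± 0.18 and 0.45 ± 0.12. By locus none of these 3 passed the test, with adjusted p values of 0.712, 0.492 and 0.114.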

How the results depend on the processing

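The 6 calls between the doses at 12 h became 3 at a mean of at least 1 FPKM, 10 after quantile normalization, 17 in a fit of only the groups compared (7 higher), 22 in sums per locus and 386 without adjustment of the p. Leaving out 1 library gave 5 to 17 calls, with 14 and 15 without control replicate 2 and 3 and 11 and 17 without 20 Gy replicate 2 and 3. Response calls (818) were 1736 per locus, 354 at 2-fold, 1404 with no fold limit and 1297 unadjusted (644 to 823 without 1 library). Calls after 5 Gy (751) were 1779, 375 at 2-fold and 1349 unadjusted (529 to 757), and after 20 Gy (635) were 1528, 287 and 1202 (463 to 653). The 24 h calls (112) were 28 in the fit of only the groups compared, 433 per locus, 67 at 2-fold and 658 unadjusted, with 73 to 140 on leaving out a library and 73 without 5 Gy replicate 3 at 24 h. The changes of dose difference (27) were 45 with no filter and 99 per locus, with 17 to 52 on leaving out a library, 17 without 5 Gy replicate 1 at 12 h and 52 without 20 Gy replicate 3 at 24 h. The 3303 genes bounded within 1.5-fold were 7240 per locus, where 17895 sums were tested, and 1750 at a mean of at least 20 FPKM (2913 to 3299 without 1 library).

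The replication median of 0.54 was 0.65 with a pseudocount of 0.1 (0.47 to 0.59 without 1 library), and the p53 median of 0.15 was 0.21 from the highest transcript and 0.20 per locus, and 0.097 and 0.20 without replicate 2 of 5 Gy and of 20 Gy. The median in the direction of the response stayed below 0 (-0.11 to -0.0020). Sums per locus reversed AABR07014275.1 (-0.30) and F11r (-0.085) between the doses, and Per1 (-0.65) and Camk2d (0.34) against control. The causes were not tested. Deviations from the group mean in 5 and 20 Gy libraries with the same replicate number had correlations of 0.089, 0.020 and 0.098. Pairs with different numbers had -0.095 to 0.0057. The same-number values were small but the higher ones. Deviations of the libraries of a dose sum to 0 for each gene, so higher same-number values force lower values in the other pairs. Whether libraries with the same number share a culture or batch was not tested. With the replicate block, 4 genes were called between the doses at 12 h, Rrm1 and Mllt11 not among them, and the other counts were 783, 712, 580, 89, 21 and 3273 in the order above. The share of genes bounded within 1.5-fold was lowest from 1 to 2 FPKM (23.5%) and from 2 to 5 FPKM (24.5%).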

Other observations

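One unnamed assembled locus, MSTRG.9590, was called between the doses in the sums per locus. It stood at 1.67, 1.62 and 1.71 FPKM in the control, 5.93, 4.79 and 6.12 FPKM after 5 Gy and 17.0, 16.1 and 11.9 FPKM after 20 Gy, a difference of 1.27 ± 0.14 (log2, adjusted p = 0.00435). Pln (phospholamban, an inhibitor of the calcium pump of the sarcoplasmic reticulum) had 0.320, 0.196 and 0.336 FPKM in the control, 2.53, 2.12 and 1.86 FPKM after 5 Gy and 3.98, 3.82 and 3.72 FPKM after 20 Gy in the same sums, a difference of 0.62 ± 0.10 (adjusted p = 0.0476). These genes were chosen after their values were seen.

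Of the marker genes of other cell types, none was called between the doses by name. Among pericyte and smooth muscle markers, 2 of 7 tested were separated upward (5.95% of all genes), and among astrocyte markers 1 of 5 was separated downward (6.29%). The neuron list had 3 tested genes and the oligodendrocyte list 2, and none of these was separated. The 1 tested gene of the microglia and leukocyte list was separated upward by name (5.95%). Its difference of 0.31 did not reach an unadjusted p under 0.05 (limma). Over its locus it was not separated and differed by 0.058.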
